A study of Mus musculus with 14 samples.

Results

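Somatic cell nuclear transfer (SCNT) embryos that overexpress Kdm4d, a demethylase of histone H3 lysine 9, were set against fertilised embryos at the 2-cell stage, to show which transcripts still differed between them. The comparison took the 2 Kdm4d SCNT 2-cell libraries and the 2 IVF (in vitro fertilisation) 2-cell libraries, 4 of the 14 RNA-seq libraries of the study, and every gene measured in them. Each of the 4 libraries was made from 25 pooled embryos. Per the strain labels, SCNT embryos of all kinds carried donor nuclei of (C57BL/6J x CAST/EiJ) F1 cumulus cells in B6D2F1 recipient oocytes, whereas IVF embryos came from C57BL/6J oocytes and CAST/EiJ sperm. The protocol text names BDF1 females as the source of cumulus cells instead and the 2 labels were not reconciled here. Strain, oocyte source and embryo kind therefore cannot be told apart. SCNT 2-cell libraries with no overexpression (2, from 40 embryos each) and SCNT 2-cell libraries with a mutant Kdm4d (2, from 25 embryos each) are given beside the compared groups. Which residue was mutated, and how Kdm4d was introduced, is not stated in the labels. Nothing in the labels says that the libraries of a group were separate experiments, so p-values measure only the spread between these libraries, which may be technical.

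In SCNT an enucleated oocyte receives the nucleus of a differentiated cell, which factors of the egg then have to reset. In the mouse the main wave of embryonic transcription begins at the 2-cell stage, when most stored maternal RNA is being removed and genes of the Zscan4, Obox and PRAME families are briefly switched on. Methylation of histone H3 lysine 9 is a mark of silent chromatin, and demethylases of the Kdm4 family remove it.

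Levels are the authors' deposited FPKM (fragments scaled by transcript length and sequencing depth). Differences are on the log2(FPKM + 1) scale, Kdm4d SCNT minus IVF unless another pair is named, with the standard error (SE) of the fit, and they understate the change of genes near 0. "Called" means an adjusted p below 0.05 in limma's moderated test with Benjamini-Hochberg adjustment over the 13446 genes tested, those with at least 1 FPKM in at least 2 of the 14 libraries. Positions of genes are on build mm9. All genes named as higher or lower had no overlap between the 2 libraries of each group.

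Relative to the deepest library at 1, the steps between low FPKM values gave depths of 0.509 and 0.415 for the Kdm4d libraries against 0.779 and 0.793 for the IVF libraries. Kdm4d replicates spread more widely than IVF replicates, with log2 SDs of 0.359 and 0.137 over the 6250 genes averaging 5 FPKM or more, so groups were weighted by their spread. Summed FPKM was 318334 and 330690 in the Kdm4d libraries and 270986 and 265010 in the IVF libraries, and the median gene was 0.18 higher in Kdm4d embryos. The labelled stage and cell were checked against markers. Of the 2-cell markers, Obox6 stood at a mean of 828 FPKM ± 356 (SD, n = 2) and Zfp352 at 159 and 94.6 in the Kdm4d libraries, Pou5f1 at 7.72 and 3.64, and Tcstv3 was listed at 0 in every library. Oocyte markers were detected in both groups. Gdf9, Bmp15, Nlrp5 and Npm2 had means of 32.4, 211, 13.6 and 70.8 FPKM in Kdm4d and 20.5, 107, 10.1 and 59.3 in IVF libraries. These lay below their IVF 1-cell means of 134, 1224, 137 and 378. Zp3, at 71.4 and 93.4 FPKM in Kdm4d and 62.0 and 50.0 in IVF libraries, lay above its IVF 1-cell mean of 21.6. Its level was therefore not read as RNA left from the oocyte. The cumulus cell markers Cyp11a1 (0.599 and 0.479) and Akr1c18 (0.784 and 0) lay below 1 FPKM in the Kdm4d libraries and Inha was listed at 0, against means of 1786, 3436 and 153 in donor cells. In the IVF libraries Cyp11a1 stood at 0.977 and 2.63 FPKM, Akr1c18 at 2.29 and 4.33 and Inha at 0.131 and 0.221, each above the Kdm4d libraries. The other defining markers were present: Spp1 stood at 10.2 and 4.35 FPKM in Kdm4d and 9.18 and 18.7 in IVF libraries (donor mean 14422). Gja1, a gap junction gene, stood at 95 and 158 against 63.9 and 53.9 (donor mean 2044) and was called higher (1.05, SE 0.20, adjusted p = 0.0058), a call lost without the second Kdm4d library (adjusted p = 0.12).

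Kdm4d itself (chromosome 9, 14267025 to 14304926) stood at 8879 and 2255 FPKM in the Kdm4d libraries and at 0.759 and 0.415 in the IVF libraries. The mutant Kdm4d libraries had 723 and 283 FPKM, and the SCNT libraries 0.543 and 0.327. The compared groups were far apart, with a log2 difference of 11.47 (SE 0.42, adjusted p = 1.5e-08), and the first Kdm4d library held several times the level of the second. How much of the introduced sequence the gene model covers is not known here.

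Against IVF embryos, 1481 genes (11% of those tested) were higher and 297 (2.21%) lower in Kdm4d embryos. Of the higher genes 922 differed by at least 1 on the log2 scale, and of the lower genes 157. The split between directions rested on the scale of the libraries: 83.3% of calls were higher as deposited, 46.8% after quantile normalization (702 higher, 5.22% of genes, and 798 lower, 5.93%) and 48.8% after scaling to equal FPKM sums (737 higher, 774 lower). All 297 lower genes were also called lower after quantile normalization, against 701 of the 1481 higher genes. Without the first Kdm4d library 622 genes were higher and 132 lower, and without the second 382 and 99. Without the second IVF library 975 genes were higher. The median lower gene stood at 3.61 FPKM in Kdm4d and 10.2 in IVF embryos, and at 3.64 in SCNT and 2.29 in mutant Kdm4d embryos. The median higher gene stood at 11 FPKM in Kdm4d, 3.94 in IVF, 8.46 in SCNT and 9.79 in mutant Kdm4d embryos. The longest annotated transcript of the higher genes had a median of 2296 bases, against 3135 over all genes tested and 3237 in the lower genes, with a match for at least 98.7% of each set. Whether transcript length plays a part in the higher calls was not tested.

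**Figure D1:**
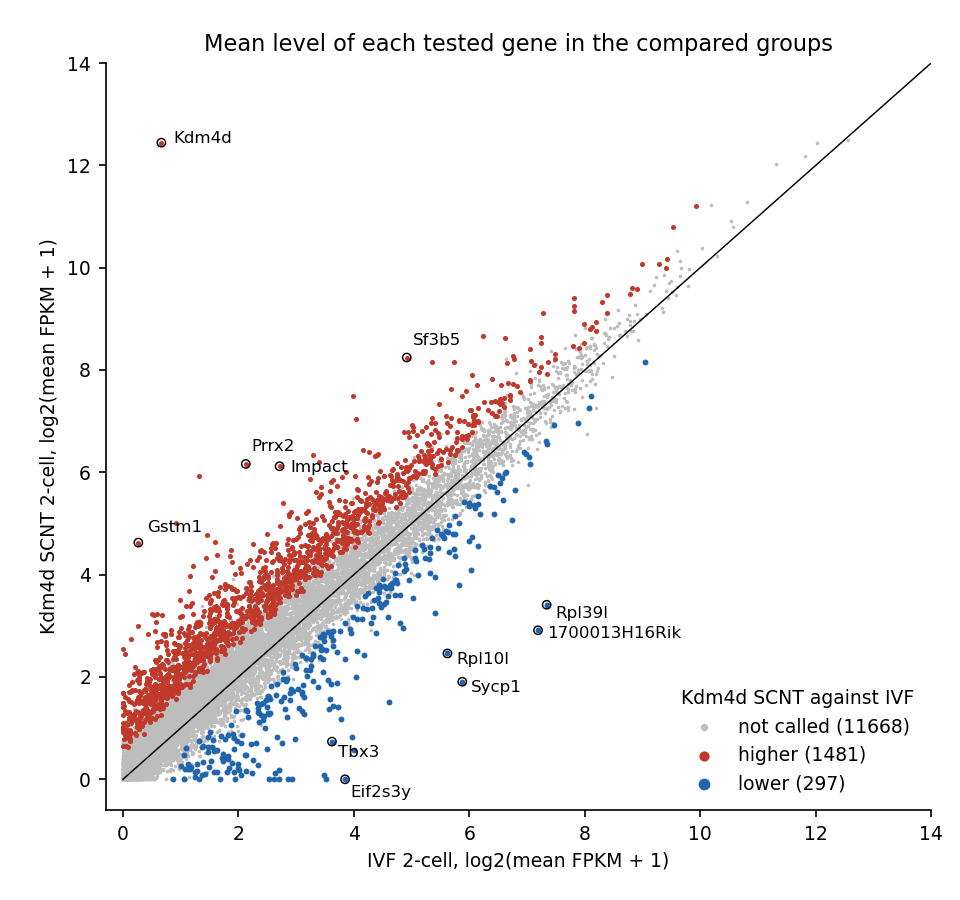
Mean level of each of the 13446 tested genes in IVF 2-cell embryos (x axis) and Kdm4d SCNT 2-cell embryos (y axis), both as log2(mean FPKM + 1), with 1481 genes called higher in red, 297 called lower in blue and the line of equal levels in black. The lower genes with the largest falls (Rpl39l, 1700013H16Rik, Sycp1, Rpl10l, Tbx3, Eif2s3y) lie well apart from the other genes, and Kdm4d lies farthest above the line.

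The largest falls against IVF embryos included several genes best known from germ cells. The upstream sequences of 4 genes with large falls are shown with that of Zscan4d, a 2-cell gene that Kdm4d embryos did express. CG pairs are marked because DNA methylation occurs at them. Each line gives the 250 bases before the gene's start, 5′ to 3′ on the gene's strand, from RefSeq on build GRCm38.p6, with each CG pair in capitals. The stretches are chr3:102936101-102936350 (minus strand) for Sycp1, chr16:10169978-10170227 (plus strand) for Rpl39l, chr12:66284402-66284651 (minus strand) for Rpl10l, chrX:53757832-53758081 (minus strand) for 1700013H16Rik and chr7:11166149-11166398 (minus strand) for Zscan4d.
Sycp1: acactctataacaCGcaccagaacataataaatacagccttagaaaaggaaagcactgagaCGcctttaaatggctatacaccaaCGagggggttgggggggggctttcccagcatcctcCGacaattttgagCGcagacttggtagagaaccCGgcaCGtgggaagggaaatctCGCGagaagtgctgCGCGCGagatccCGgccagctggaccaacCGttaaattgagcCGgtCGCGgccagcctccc
Rpl39l: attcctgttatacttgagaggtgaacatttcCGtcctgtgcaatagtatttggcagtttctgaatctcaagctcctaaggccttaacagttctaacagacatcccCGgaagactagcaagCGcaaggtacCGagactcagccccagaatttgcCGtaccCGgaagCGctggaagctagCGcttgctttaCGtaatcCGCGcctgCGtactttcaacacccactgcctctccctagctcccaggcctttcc
Rpl10l: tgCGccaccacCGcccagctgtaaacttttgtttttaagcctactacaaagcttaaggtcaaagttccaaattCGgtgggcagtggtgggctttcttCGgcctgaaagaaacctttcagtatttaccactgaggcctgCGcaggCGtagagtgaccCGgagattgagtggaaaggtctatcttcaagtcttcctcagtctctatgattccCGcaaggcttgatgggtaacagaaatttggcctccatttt
1700013H16Rik: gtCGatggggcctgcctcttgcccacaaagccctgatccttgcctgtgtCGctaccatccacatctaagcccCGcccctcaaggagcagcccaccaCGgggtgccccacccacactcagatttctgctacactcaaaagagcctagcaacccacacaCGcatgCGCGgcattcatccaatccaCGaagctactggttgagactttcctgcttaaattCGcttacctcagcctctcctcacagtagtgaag
Zscan4d: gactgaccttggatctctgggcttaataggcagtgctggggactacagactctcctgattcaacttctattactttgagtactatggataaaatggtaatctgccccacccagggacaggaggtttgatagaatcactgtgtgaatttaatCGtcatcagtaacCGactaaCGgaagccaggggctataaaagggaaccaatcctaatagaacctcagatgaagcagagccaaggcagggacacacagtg
Sycp1 held 17 CG pairs in this stretch, Rpl39l 12, 1700013H16Rik 9, Rpl10l 8 and Zscan4d 3. Over the 22862 genes with a single entry in the promoter table, the median was 5, with quartiles of 2 and 16. All but Sycp1 thus lay between the quartiles. Rpl39l and Sycp1 were also present in IVF 1-cell embryos, at means of 31.8 and 11.6 FPKM. A RefSeq promoter was matched for 127 of the 178 named or marker genes. Methylation was not measured in these libraries, and a link between CG pairs and the falls was not tested.

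1700013H16Rik, an X-linked gene (chromosome X, 51046078 to 51061008), showed the largest fall. It stood at 8.72 and 4.34 FPKM in the Kdm4d libraries and at 135 and 154 in the IVF libraries, a log2 difference of -4.33 (SE 0.26, adjusted p = 1.4e-06). In SCNT and mutant Kdm4d embryos it lay at or below 0.0443 FPKM in every library, so Kdm4d embryos were above both (log2 difference from SCNT 2.80, adjusted p = 3.6e-05; from mutant 2.85, adjusted p = 0.00082) and still far below IVF embryos.

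Rpl39l (chromosome 16, 10170321 to 10175004) and Rpl10l (chromosome 12, 67384366 to 67385388) are copies of ribosomal protein genes known from male germ cells. Rpl39l stood at 13.4 and 5.88 FPKM in the Kdm4d libraries against 162 and 161 in the IVF libraries, 16.7-fold lower by the means (log2 difference -4.03, SE 0.27, adjusted p = 3.5e-06). The mutant libraries, at 10.2 and 5.28, overlapped the Kdm4d libraries, and the SCNT libraries were lower still at 2.37 and 2.21. Rpl10l stood at 4.46 and 4.54 FPKM against 50.6 and 45.7 in IVF (-3.16, SE 0.25, adjusted p = 1.1e-05). Here the Kdm4d libraries lay above both mutant libraries (0.0485 and 0.361) and both SCNT libraries (0.496 and 0.928). Of the 8 ribosomal protein paralogues tested, of 10 listed, these 2 were lower and Rps4y2 was higher, at 48.5 and 47.2 FPKM against 10.7 and 7.66 (2.28, SE 0.54, adjusted p = 0.016). The call of Rps4y2 was lost without either Kdm4d library (adjusted p = 0.12 and 0.13) or the second IVF library (adjusted p = 0.052).

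Sycp1 (chromosome 3, 102622422 to 102740023) encodes a transverse filament protein of the synaptonemal complex, which joins paired chromosomes in meiosis. It stood at 3.80 and 1.71 FPKM in the Kdm4d libraries and at 54.8 and 60.8 in the IVF libraries (-4.03, SE 0.28, adjusted p = 4.3e-06). SCNT (3.25 and 4.68) and mutant libraries (4.86 and 3.19) were as low as the Kdm4d libraries, and no difference from either was detected (adjusted p = 0.29 and 0.44). Its pseudogene Sycp1-ps1 moved the same way, with 2.60 and 1.08 against 21.7 and 25.3 FPKM (-3.16, SE 0.27, adjusted p = 2.4e-05). It shared 4.59% of its 50-base stretches with other genes.

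Of 40 meiosis and germline genes tested, of 45 listed, 8 were lower (20%, against 2.21% of all genes) and 3 higher (7.5%, against 11%), with a median of -0.07 against 0.18 over all genes. After quantile normalization 11 were lower (27.5%, against 5.93%) and 0 higher. Without the first Kdm4d library 5 were lower and without the second 4. Rnf17, a germ granule protein gene, stood at 1.41 and 1.40 FPKM against 7.23 and 8.26 (-1.86, SE 0.21, adjusted p = 0.00024). Mov10l1, which encodes a helicase needed for making piRNAs, stood at 0.00941 and 0.265 against 3.29 and 2.80 (-1.84, SE 0.18, adjusted p = 6.6e-05). Both were also low in SCNT libraries, at 2.61 and 3.24 for Rnf17 and 0.394 and 0.456 for Mov10l1. Mov10l1 reached 1 FPKM only in the IVF 2-cell libraries, so it passed the filter through them alone and had to be lower. How many of the 8 lower members did so was not counted. The higher members were Ctcfl (0.87, adjusted p = 0.0099), Tdrd3 (0.84, adjusted p = 0.035) and Tdrd12 (0.63, adjusted p = 0.048). None of these 3 was called after quantile normalization, and each call was lost without the first Kdm4d library (adjusted p = 0.14, 0.38 and 0.15). Tdrd3 and Tdrd12 also lost theirs without either IVF library (adjusted p from 0.068 to 0.11), and Tdrd12 without the second Kdm4d library (adjusted p = 0.26).

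Tbx3 (chromosome 5, 120120678 to 120134610), a T-box transcription factor gene linked to pluripotency, stood at 0.789 and 0.543 FPKM in the Kdm4d libraries and at 11.9 and 10.7 in the IVF libraries (-2.88, SE 0.21, adjusted p = 6e-06). It was as low in SCNT (0.631 and 0.321) and mutant libraries (0.570 and 0.884). Tbx3 reached 1 FPKM only in the IVF 2-cell libraries, so it passed the filter through them alone and had to be lower. Tfap2c, a trophoblast and germ cell factor gene, stood at 2.21 and 3.22 FPKM against 13.1 and 10.9 (-1.82, SE 0.25, adjusted p = 0.00087). Its SCNT libraries, at 0.782 and 0.747, were below the Kdm4d libraries (log2 difference of Kdm4d from SCNT 1.06, adjusted p = 0.0096). Sox15 was lower by a smaller step, 6.62 and 9.52 against 22.3 and 15.9 FPKM (-1.15, SE 0.27, adjusted p = 0.016), a call lost without either Kdm4d library (adjusted p = 0.17 and 0.064).

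Of 36 pluripotency and lineage factors tested these 3 were lower (8.33%, against 2.21% of all genes) and 8 higher (22.2%, against 11%). After quantile normalization 4 were lower (11.1%, against 5.93%) and 6 higher (16.7%, against 5.22%). Without the first Kdm4d library 2 were lower and 3 higher, and without the second again 2 and 3. Mycn, of the Myc family, stood at 12.7 and 11.7 FPKM against 3.18 and 1.67 (1.98, SE 0.30, adjusted p = 0.0018). Klf5, a Krüppel-like factor gene of early lineages, stood at 9.23 and 5.59 against 1.23 and 1.81 (1.71, SE 0.30, adjusted p = 0.0038), a call lost without the first Kdm4d library (adjusted p = 0.065). The mutant libraries were close to the Kdm4d libraries for Mycn (14.2 and 12.4), whereas for Klf5 they had 2.35 and 5.37.

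Other large falls were in Cst9, a cystatin gene (listed at 0 in both Kdm4d libraries, 6.69 and 14.2 FPKM in IVF), and Pdgfrl, a gene similar to a growth factor receptor (0.109 and 0 against 8.31 and 12.1). Pdgfrl would not have passed the filter without the IVF 2-cell libraries. Defb25, a beta-defensin gene expressed in donor cells (mean 6.24 FPKM), was listed at 0 in both Kdm4d libraries and stood at 6.95 and 5.6 in IVF libraries. Its SCNT libraries had 2.62 and 4.22.

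**Figure D2:**
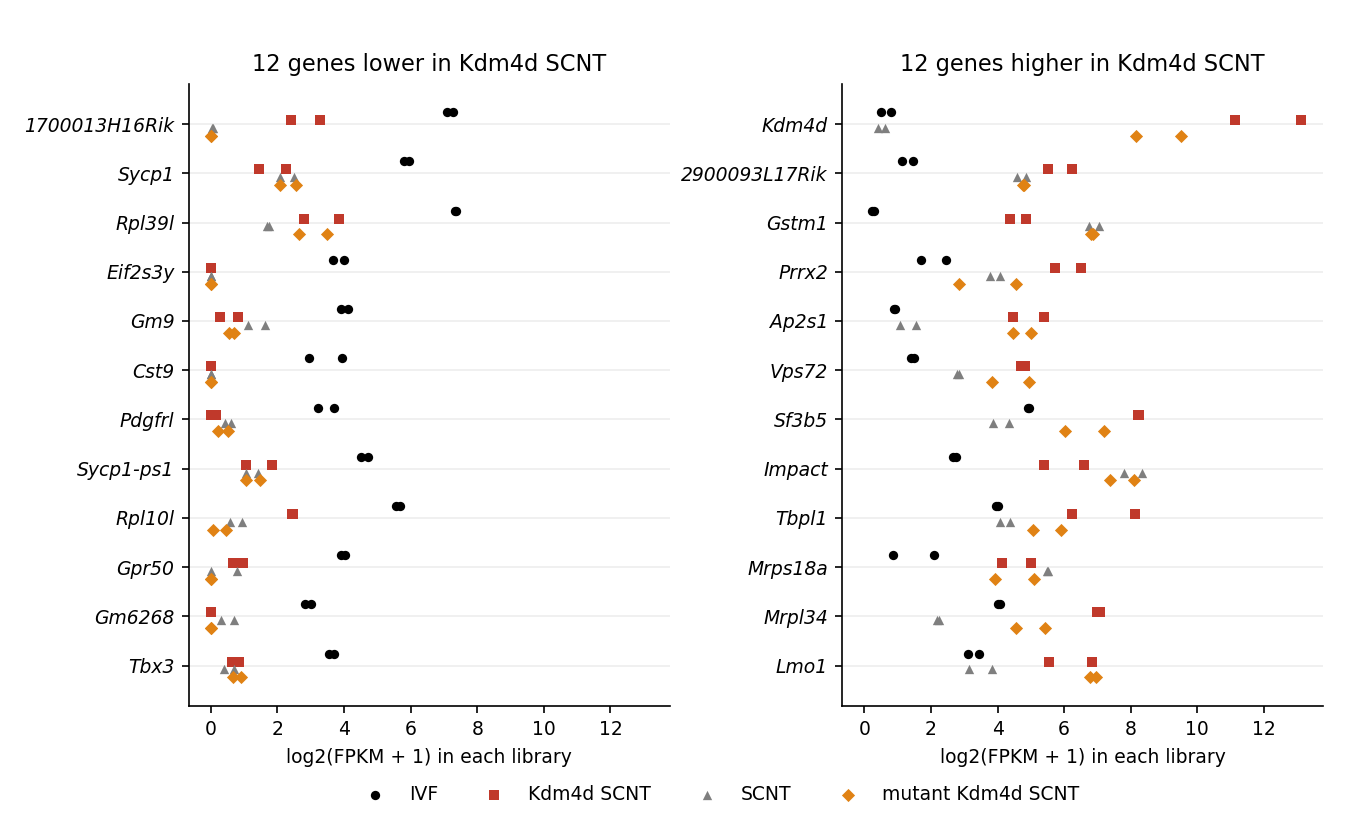
Level of the 12 genes with the largest fall (left) and the 12 with the largest rise (right) in Kdm4d SCNT against IVF 2-cell embryos, as log2(FPKM + 1) on the x axis, with 1 point for each of the 8 libraries of the 2-cell groups. In the left panel the SCNT and mutant Kdm4d points lie with or below the Kdm4d points for most genes, and in the right panel they lie on either side of them.

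Transcripts of the 2-cell stage stood much nearer to IVF embryos than in SCNT embryos, though a part stayed lower. Of the 55 tested members of this list (81 listed), 11 were lower (20%, against 2.21% of all genes) and 1 higher than in IVF embryos. Members that reached 1 FPKM only in the IVF 2-cell libraries had to be lower, and how many of the 11 were of this kind was not counted. In SCNT embryos 48 members were lower and 2 higher than in IVF, where 19.7% of all genes were lower and 36.2% higher. The median member stood at 77.3% of its IVF level in Kdm4d embryos, 21.8% in SCNT and 11% in mutant Kdm4d embryos (54 members with at least 1 FPKM in IVF). Over all such genes these medians were 120%, 104% and 113%. After quantile normalization 14 members were lower than in IVF (25.5%, against 5.93% of all genes) and 0 higher. The median log2 difference was then -0.61 instead of -0.32, so the nearness to IVF depended in part on the scale of the libraries. Set against SCNT embryos directly, 47 of the 55 were higher in Kdm4d embryos and 0 lower, where 16.9% of all genes were higher and 11.8% lower. Against mutant Kdm4d embryos 41 were higher and 2 lower, where 10.8% of all genes were higher and 5.93% lower. The first of these comparisons shares its Kdm4d libraries with the comparison with IVF, and the list was drawn up with earlier results of these data known. Without the second Kdm4d library 4 members were lower than in IVF, and without the first 10.

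The Zscan4 family, which marks the brief 2-cell state, was chosen after its values were seen. Zscan4d (chromosome 7, 11746992 to 11751497), whose upstream sequence is shown above, stood at 21.2 and 9.61 FPKM in the Kdm4d libraries, 41.4 and 36.5 in the IVF libraries, 0.228 and 0.898 in the SCNT libraries and 0.556 and 0.269 in the mutant libraries. The groups did not overlap between Kdm4d and any other. Its log2 difference from IVF was -1.38 (SE 0.36, adjusted p = 0.025), lost without the second Kdm4d library (-0.84, adjusted p = 0.35) or the first IVF library (adjusted p = 0.06), and from SCNT 3.33 (adjusted p = 8.9e-05). Zscan4a, Zscan4b, Zscan4c and Zscan4f were also lower than in IVF, by between -0.60 and -1.29, and the calls of Zscan4a and Zscan4b were lost without the second Kdm4d library (adjusted p = 0.059 and 0.097), that of Zscan4b also without the first (adjusted p = 0.07). These genes share between 49.4% (Zscan4d) and 94.4% (Zscan4f) of their 50-base stretches with other genes, so their separate values are uncertain. Zscan4b and Zscan4f reached 1 FPKM only in the IVF 2-cell libraries. They passed the filter through these libraries alone and had to be lower, so their calls are no result.

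Gm8994 showed the largest fall of the list, with 1.88 and 1.42 FPKM against 11.6 and 13 in IVF (-2.33, SE 0.23, adjusted p = 6.5e-05), and shared 49.2% of its stretches with other genes. Hspa2, a heat shock protein gene of germ cells, was the higher member (0.92, adjusted p = 0.048). It was not called after quantile normalization (adjusted p = 0.15) without the first Kdm4d library (adjusted p = 0.57) or without the second IVF library (adjusted p = 0.14). None of the 6 tested Obox and Crxos1 homeobox genes was called. Obox6 stood at 828 FPKM ± 356 (SD, n = 2) against 696 and 715 in IVF (0.16, SE 0.35, adjusted p = 0.84), and Crxos1 at 314 and 455 against 483 and 480 (-0.35, SE 0.25, adjusted p = 0.42). SCNT embryos had 128 and 137 FPKM of Obox6. Crxos1 shared 17% of its stretches with other genes, so its level is uncertain. The wide spread of the Kdm4d libraries limits what this comparison could detect. Dppa3, a maternal gene of the early embryo named after its values were seen, stood at 5301 and 6259 FPKM against 5891 and 6158, and shared 18.8% of its stretches with a pseudogene.

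Of 127 ribosome biogenesis genes 4 were higher (3.15%, against 11% of all genes) and 3 lower (2.36%, against 2.21%), with a median of 0.03. In SCNT embryos 4 were higher and 93 lower (73.2%, against 19.7% of all genes), with a median of -0.91. After quantile normalization 15 were lower (11.8%, against 5.93% of all genes) and 0 higher, so the small median depended on the scale of the libraries. Without the first Kdm4d library 3 were higher and 0 lower, and without the second 0 and 1. Las1l, an X-linked gene of ribosomal RNA processing, stood at 24.7 and 28.5 FPKM against 53.5 and 49.3 (-0.93, SE 0.18, adjusted p = 0.0062), a call lost without the first Kdm4d library (adjusted p = 0.073). Of 77 cytosolic ribosomal protein genes 5 were higher (6.49%, against 11% of all genes) and 0 lower. After quantile normalization 4 were higher (5.19%, against 5.22%) and 5 lower (6.49%, against 5.93%). In SCNT embryos 2 were higher and 53 lower (68.8%, against 19.7%). Without the first or the second Kdm4d library 3 and 2 were higher. Rpl14 stood at 63.0 and 98.1 FPKM against 22.8 and 17.9 (1.91, SE 0.24, adjusted p = 0.00048). It shared 36.7% of its stretches with other genes, so its level is uncertain.

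The higher genes included many of mitochondrial and protein turnover machinery. Of 75 mitochondrial ribosomal protein genes 33 were higher (44%, against 11% of all genes) and 0 lower than in IVF embryos, with a median of 0.64 against 0.18 over all genes tested, and 22 and 0 after quantile normalization (29.3% higher, against 5.22% of all genes). Of 48 proteasome genes 17 were higher (35.4%) and 1 lower, 10 (20.8%) and 1 after quantile normalization. Of 81 oxidative phosphorylation genes 25 were higher (30.9%) and 2 lower, 14 (17.3%) and 2 after quantile normalization. These counts fell strongly without 1 Kdm4d library, as did the count over all genes, and that of mitochondrial ribosomal proteins fell most without the second. Whether the excess over all genes held without either library was therefore not shown. Among members with at least 1 FPKM in IVF (68, 45 and 76), the median stood at 167%, 163% and 153% of the IVF level in Kdm4d embryos, against 120% over all such genes. It stood at 106%, 101% and 123% in SCNT embryos (all genes 104%) and at 126%, 113% and 145% in mutant Kdm4d embryos (all genes 113%).

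Mrps18a, of the small mitochondrial subunit, stood at 16.6 and 31.3 FPKM against 3.25 and 0.806 (3.10, SE 0.50, adjusted p = 0.0022), a call lost without the second Kdm4d library (adjusted p = 0.057). Mrpl34, of the large subunit, stood at 135 and 125 FPKM in the Kdm4d libraries, 15.8 and 15 in IVF, 3.57 and 3.77 in SCNT and 22.4 and 42.1 in mutant libraries. All other libraries thus lay below the Kdm4d libraries, but the call against IVF (2.99, SE 0.72, adjusted p = 0.017) was lost without either Kdm4d library (adjusted p = 0.12 and 0.13). Sdhb, the iron-sulphur subunit of succinate dehydrogenase, stood at 22.2 and 28 FPKM against 5.45 and 7.09 (1.84, SE 0.26, adjusted p = 0.0011). The lower members of oxidative phosphorylation were Cox8c (0.397 and 0.810 against 3.54 and 3.73) and Cox7b2 (0.213 and 0 against 1.04 and 1.70), both isoforms of cytochrome oxidase subunits known from testis. Cox7b2 reached 1 FPKM only in the IVF 2-cell libraries, so it passed the filter through them alone and had to be lower. The calls of Cox8c were lost without the first or the second Kdm4d library (adjusted p = 0.13 and 0.072), and that of Cox7b2 without the second (adjusted p = 0.13).

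Psma6, a core subunit of the proteasome, stood at 206 and 408 FPKM against 118 and 95.2 (1.44, SE 0.25, adjusted p = 0.0034), lost without the second Kdm4d library (adjusted p = 0.08). Psme4, a proteasome activator gene, was lower at 88.7 and 73.2 against 123 and 129 FPKM (-0.64, SE 0.19, adjusted p = 0.042). Its call was lost without any 1 of the 4 libraries (adjusted p from 0.066 to 0.31).

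Of 74 spliceosome genes 12 were higher (16.2%, against 11% of all genes) and 0 lower, and fewer were higher without either Kdm4d library. After quantile normalization 5 were higher (6.76%, against 5.22%) and 9 lower (12.2%, against 5.93%). Sf3b5, of the SF3b complex (chromosome 10, 12728256 to 12728989), rose most, with 306 and 298 FPKM in the Kdm4d libraries, 29.6 and 28.9 in IVF, a mean of 16.4 in SCNT and 63.7 and 145 in mutant libraries. It was 10.3-fold higher than in IVF by the means (3.32, SE 0.57, adjusted p = 0.003).

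**Figure D3:**
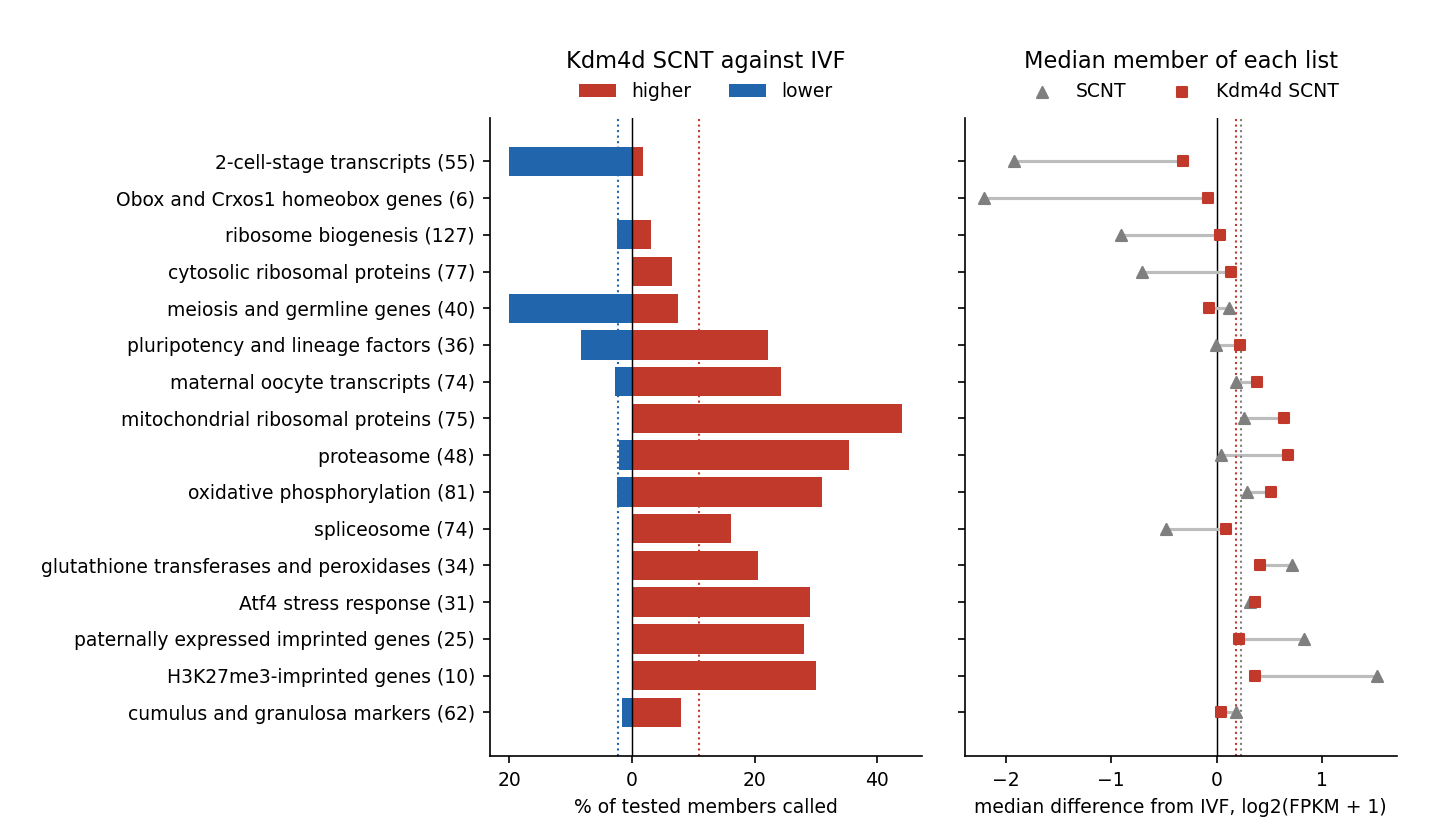
Left, percentage of the tested members of each gene list (number in brackets) called higher (red) or lower (blue) in Kdm4d SCNT than in IVF 2-cell embryos, with dotted lines at 11% and 2.21% for all genes. Members that passed the filter through the IVF 2-cell libraries alone, such as Tbx3, were kept. Right, median difference from IVF on the log2(FPKM + 1) scale for SCNT (grey triangles) and Kdm4d SCNT embryos (red squares), with dotted lines for all genes tested; the 2-cell-stage median moves from -1.92 to -0.32.

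Among the largest rises, some were at a level between IVF and SCNT embryos and others lay above both. Gstm1, a glutathione transferase gene (chromosome 3, 107815168 to 107820891), stood at 19.7 and 27.7 FPKM in the Kdm4d libraries against 0.173 and 0.234 in IVF (4.34, SE 0.25, adjusted p = 1.2e-06). SCNT libraries had 131 and 106 and mutant libraries 115 and 112 FPKM, so the Kdm4d libraries lay between. Donor cells had a mean of 31.3 FPKM. Gstm1 shared 24% of its stretches with other genes of its family and pseudogenes, so its level is uncertain. The imprinted gene Impact, of which the paternal copy is active (chromosome 18, 13130761 to 13151457), stood at 41.4 and 95.6 FPKM against 5.76 and 5.36 in IVF (3.29, SE 0.30, adjusted p = 5.1e-05), with 321 and 220 in SCNT and 164 and 270 in mutant libraries.

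Prrx2, a homeobox gene (chromosome 2, 30700887 to 30736767), lay above the other 2-cell groups, at 51.4 and 89.9 FPKM against 4.51 and 2.23 in IVF, 12.7 and 15.7 in SCNT and 6.23 and 22.5 in mutant libraries. Its difference was 4.03 from IVF (SE 0.42, adjusted p = 0.00011) and 2.41 from mutant embryos (adjusted p = 0.014). Tbpl1, which encodes a relative of the TATA-binding protein, stood at 281 and 75.1 FPKM against 15.1 and 14.5 in IVF (3.22, SE 0.37, adjusted p = 0.00024), 19.7 and 15.8 in SCNT and 59.4 and 32.5 in mutant libraries. 2900093L17Rik, at 44.6 and 75 against 1.78 and 1.20 (4.57, SE 0.32, adjusted p = 4.8e-06), is annotated antisense to Frmpd1. No label says whether reads were assigned by strand, so the strands cannot be told apart.

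In a further set the Kdm4d and mutant Kdm4d libraries both lay above the IVF and SCNT 2-cell libraries. The transcripts were already present at the 1-cell stage. Lmo1 had means of 42.3 FPKM in IVF and 72.3 in SCNT 1-cell libraries, Ap2s1 20.2 and 45.6, and Vps72 28.9 and 64.1. Whether they were raised or kept from the 1-cell stage was not tested. Lmo1, which encodes a LIM-domain protein, stood at 114 and 45.3 FPKM in Kdm4d, 108 and 124 in mutant, 9.98 and 7.69 in IVF and 7.90 and 13.3 in SCNT libraries (Kdm4d against IVF 2.90, SE 0.56, adjusted p = 0.0055). Ap2s1, of the AP-2 endocytic adaptor, stood at 41.0 and 21.2 in Kdm4d, 21.2 and 30.9 in mutant, 0.873 and 0.896 in IVF and 1.1 and 1.95 in SCNT libraries (4.02, SE 0.80, adjusted p = 0.0066). The Kdm4d and mutant libraries overlapped in both genes, and no difference between them was detected (adjusted p = 0.58 and 0.93). Lmo1 lost its call against IVF without the first Kdm4d library (adjusted p = 0.1), and Ap2s1 without either (adjusted p = 0.092 and 0.052). Vps72, of a histone exchange complex, showed a like order, at 25.2 and 27.6 in Kdm4d, 13.4 and 29.9 in mutant, 1.82 and 1.65 in IVF and 5.87 and 6.15 in SCNT libraries. Its call was lost without the second Kdm4d library (adjusted p = 0.058).

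Of 74 maternal oocyte transcripts 18 were higher (24.3%, against 11% of all genes) and 2 lower, with a median of 0.38 against 0.18 over all genes. After quantile normalization 9 were higher (12.2%, against 5.22%) and 2 lower, and the median was 0.04 against -0.01. Without the first Kdm4d library 5 were higher and without the second 13. Tcl1b5, of the oocyte Tcl1 cluster, stood at 125 and 121 FPKM against 42.0 and 41.2 (1.54, SE 0.18, adjusted p = 0.00028), with 239 and 137 in mutant and 52.9 and 52.4 in SCNT libraries. It shared 19.5% of its stretches with its family, so its level is uncertain. Bmp15, the oocyte growth factor gene, stood at 259 and 163 FPKM against 105 and 110 (0.93, SE 0.19, adjusted p = 0.0077), lost without the first Kdm4d library (adjusted p = 0.13). The members that were lower do not share this pattern. Pld6, of the mitochondrial piRNA machinery, had 13.7 and 14 FPKM in Kdm4d, 29.9 and 30.1 in IVF and 3.89 and 3.6 in SCNT libraries. Its IVF 1-cell mean was only 1.5 FPKM, so its 2-cell level was not read as RNA left from the oocyte. Ccnb3, a meiotic cyclin gene, had 0.474 and 0.968 FPKM in Kdm4d against 4.61 and 9.21 in IVF libraries. Both of these calls were lost without the first Kdm4d library (adjusted p = 0.058 and 0.065), that of Pld6 also without the second (adjusted p = 0.067).

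Imprinted genes are expressed from a single parental allele. Of 25 paternally expressed genes tested (40 listed) 7 were higher (28%, against 11% of all genes) and 0 lower than in IVF, and 3 were higher after quantile normalization (12%, against 5.22%). In SCNT embryos 14 were higher (56%, against 36.2%) and 3 lower. Without the first or the second Kdm4d library 3 were higher. Set against SCNT embryos directly, Kdm4d embryos were lower in 10 and higher in 4 of the 25, where 11.8% of all genes were lower and 16.9% higher. Gab1, whose imprint rests on histone H3 lysine 27 methylation, stood at 3.11 and 3.33 FPKM against 0.320 and 0.0897 (1.82, SE 0.28, adjusted p = 0.0018), the level of the SCNT libraries (2.97 and 3.06). Slc38a4, of the same class, had 1.15 and 1.82 against 0.00634 and 0.398 (1.05, SE 0.28, adjusted p = 0.029), a call lost after quantile normalization (adjusted p = 0.073), without either Kdm4d library (adjusted p = 0.091 and 0.26) and without the first IVF library (adjusted p = 0.077). Of 10 genes of this class tested, 3 were higher in Kdm4d embryos (30%, against 11% of all genes), and fewer without either Kdm4d library. After quantile normalization 1 was higher (10%, against 5.22%). In SCNT embryos 8 were higher (80%, against 36.2%). Sfmbt2 and Mbnl2, named after their values were seen, were in the class and not called. Sfmbt2 stood at 1.62 and 0.553 FPKM in Kdm4d, 1.70 and 2.08 in IVF and 21.4 and 17.8 in SCNT libraries, and Mbnl2 at 0.565 and 0.632, 0.126 and 0.238, and 5.67 and 4.34.

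Of 25 maternally expressed imprinted genes 2 were higher and 2 lower (8% each, against 11% and 2.21% of all genes). After quantile normalization the counts were again 2 and 2, and both were smaller without either Kdm4d library. H19, a long noncoding RNA gene, was listed at 0 in both IVF libraries and stood at 2.55 and 1.87 FPKM in Kdm4d and 3.28 and 1.64 in mutant libraries, with 0.0188 and 0 in SCNT libraries. Its adjusted p was 0.00016. Phlda2, a growth-limiting gene of the placenta, stood at 63.4 and 43.6 against 18 and 18.6 FPKM (1.47, SE 0.34, adjusted p = 0.014), with 57.5 and 33.4 in mutant and 3.43 and 3.52 in SCNT libraries. The call of Phlda2 was lost without either Kdm4d library (adjusted p = 0.16 and 0.065). The lower members were Zim3 (3.62 and 8.86 against 15.1 and 13.9), which shared 77.3% of its stretches with Usp29 and others, and the cell cycle inhibitor gene Cdkn1c (3.17 and 1.07 against 5.89 and 4.65). Zim3 lost its call without the first Kdm4d library (adjusted p = 0.36) and Cdkn1c without the second (adjusted p = 0.47), and both without the first IVF library (adjusted p = 0.059 and 0.1).

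Of 31 genes of the Atf4 response, which is switched on by amino acid shortage and unfolded protein, 9 were higher and 0 lower (29% higher, against 11% of all genes), 6 and 2 after quantile normalization, and 4 and 0 without either Kdm4d library. Psph, of serine synthesis, stood at 16.6 and 23.0 FPKM against 2.07 and 2.16 (2.72, SE 0.22, adjusted p = 1.7e-05), with 32.2 and 28.2 in SCNT libraries. Slc38a2, an amino acid transporter gene abundant in donor cells (mean 181 FPKM), stood at 8.84 and 5.21 against 0.155 and 0.241 (2.71, SE 0.28, adjusted p = 0.00011). SCNT libraries had 33.6 and 29.9 FPKM of it, so the Kdm4d libraries lay between. Cdkn1a, the p53 target gene that encodes a brake on the cell cycle, stood at 39.8 and 32.3 against 8.65 and 7.27 (2.04, SE 0.27, adjusted p = 0.00075). It was 1 of 3 higher among 25 tested p53 targets, with 0 lower, a share of 12% near the 11% of all genes, and without the second Kdm4d library 1 was higher. Ripk3, of necroptosis, had 8.03 and 3.37 against 0.156 and 0.0418 (2.52, SE 0.30, adjusted p = 0.00028), with 36.5 and 35 in SCNT libraries. Of 32 apoptosis and necroptosis genes 4 were higher (12.5%, also near that of all genes) and 1 lower, and 1 and 2 after quantile normalization.

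Of 34 glutathione enzymes tested, Gstm1 included, 7 were higher (20.6%, against 11% of all genes) and 0 lower. After quantile normalization 6 were higher (17.6%, against 5.22%). In SCNT embryos 22 were higher (64.7%, against 36.2% of all genes) and 2 lower. Gsto1 stood at 11.1 and 11 FPKM against 1.5 and 2.11 (2.11, SE 0.32, adjusted p = 0.0018). Gpx1, which reduces peroxides, stood at 303 and 270 against 45.3 and 34.7, with 200 and 295 in mutant and 38.8 and 46.4 in SCNT libraries (2.82, SE 0.67, adjusted p = 0.016, lost without either Kdm4d library at 0.12).

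Lists of chromatin genes differed in how many members were called. Of 21 H3K9 methyltransferases and readers tested 1 was higher and 1 lower, against 11% and 2.21% of all genes. Ehmt2, the H3K9 methyltransferase G9a, stood at 5.51 and 5.34 FPKM against 0.547 and 0.452 (2.10, SE 0.25, adjusted p = 0.0003), and mutant libraries had 3.52 and 4.61. Atrx, an X-linked chromatin remodeller gene, stood at 40.3 and 36.0 against 65.3 and 69.3 (-0.80, SE 0.16, adjusted p = 0.0066), lost without the second Kdm4d library (adjusted p = 0.083). Of 12 H3K9 demethylase genes Kdm4d alone was called, and 3 were lower after quantile normalization (25%, against 5.93% of all genes). None of 16 histone deacetylase genes was called, and after quantile normalization 1 was lower. Of 22 DNA methylation genes 5 were higher and 1 lower (22.7% and 4.55%), 2 and 1 after quantile normalization, with 2 and 1 higher without the first or the second Kdm4d library. Of 14 genes of histone H3.3 and H3 chaperones 2 were higher (14.3%) and 1 lower (7.14%). After quantile normalization 1 was higher and 5 lower (35.7%, against 5.93% of all genes). Dnmt3l, the cofactor of the DNA methyltransferases, stood at 18.9 and 18 against 5.78 and 5.54 (1.55, SE 0.17, adjusted p = 0.00018), with 33.0 and 38.2 in mutant libraries. Kdm6b, an H3K27 demethylase gene, stood at 31.9 and 14.6 against 3.84 and 3.75 (2.24, SE 0.45, adjusted p = 0.0071), lost without the first Kdm4d library (adjusted p = 0.12).

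By chromosome, as a description only, the lower genes were a larger share on X than on any autosome. Of 492 X-linked genes tested 40 were lower (8.13%) and 39 higher (7.93%), whereas on single autosomes between 0.719% and 3.55% were lower and between 8.08% and 14.7% higher. After quantile normalization 77 X-linked genes were lower and 15 higher. Without the first Kdm4d library 24 were lower and 6 higher, and without the second 20 and 7. The median X-linked gene differed by 0.07, against 0.19 over the autosomes. The 40 lower genes had a median of 2.80 FPKM in Kdm4d, 10.6 in IVF, 1.5 in SCNT and 1.18 in mutant Kdm4d embryos, and 16 of them lay below 1 FPKM in both donor cells and IVF 1-cell embryos. Besides 1700013H16Rik, large falls on X were those of Gm9 (0.769 and 0.212 against 13.9 and 16.3 FPKM), the orphan receptor gene Gpr50 (0.589 and 0.97 against 15.2 and 14) and Gm6268 (listed at 0 against 6.06 and 7.09). Gpr50 reached 1 FPKM only in the IVF 2-cell libraries, so it had to be lower, and Gm6268 would not have passed the filter without them. Such genes were not counted by chromosome, so their part in the share on X is not known. Nup62cl and Fmr1nb, named after their values were seen, were lower in Kdm4d than in IVF and higher than in SCNT embryos. Nup62cl stood at 10.9 and 6.03 FPKM in Kdm4d, 46.1 and 36.6 in IVF and 0.514 and 0.662 in SCNT libraries. Fmr1nb stood at 47.2 and 18.2, 105 and 107, and 5.56 and 9.96, and its call against IVF was lost without the second Kdm4d library (adjusted p = 0.11).

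Of 12 listed Y-linked genes 4 were tested, each of which passed the filter on low levels only through the IVF 2-cell libraries, so that all had to be lower and the count is no result. Eif2s3y, a translation initiation factor gene, was listed at 0 in both Kdm4d libraries and stood at 15.1 and 11.6 FPKM in the IVF libraries, and the summed level of 11 Y-linked genes was at most 0.0188 FPKM in the Kdm4d and between 22.6 and 29.7 in the IVF libraries. Cumulus cells come from females, whereas IVF pools may hold embryos of either sex, so sex and embryo kind cannot be told apart on X and Y. Xist, the RNA that coats the inactive X, named after its values were seen, stood at 0.603 and 0.312 FPKM in Kdm4d, 0.222 and 0.165 in IVF, 4.98 and 4.59 in SCNT and 1.54 and 2.74 in mutant libraries. Kdm4d embryos were below SCNT embryos (-1.99, adjusted p = 0.00014), and no difference from IVF was detected (0.28, SE 0.23, adjusted p = 0.49). Xist overlaps its antisense partner Tsix, and the strands cannot be told apart.

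**Figure D4:**
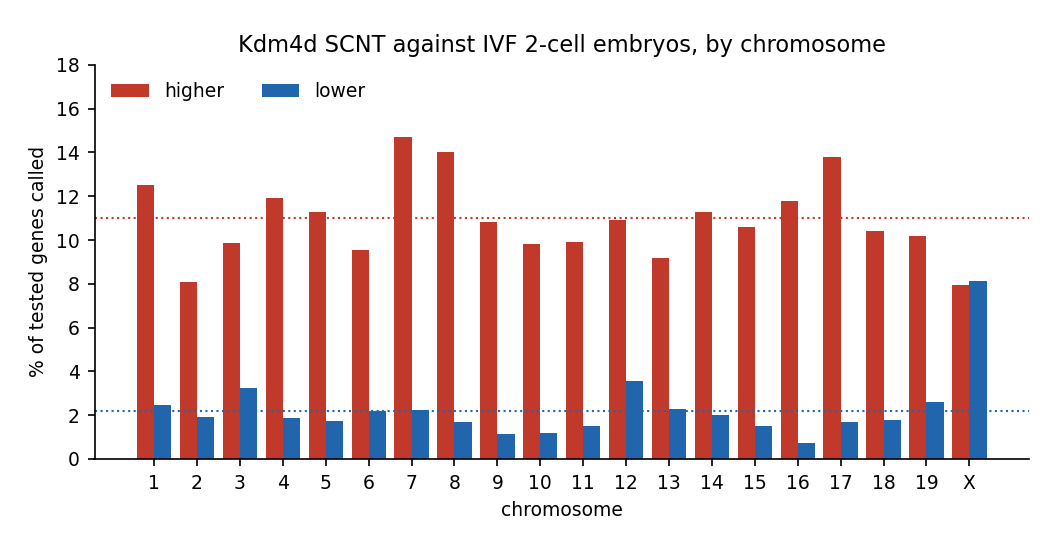
Percentage of the tested genes of each chromosome that were called higher (red) or lower (blue) in Kdm4d SCNT than in IVF 2-cell embryos, with dotted lines at the shares of all genes (11% and 2.21%); Y, whose 4 tested genes passed the filter through the IVF libraries alone, is left out. On X 8.13% of genes were lower, above the highest autosome at 3.55%. Genes of the chromosomes shown that passed the filter in the same way, such as Gpr50 on X, were kept.

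Genes were also classed by where they were expressed before the 2-cell stage, from donor and IVF 1-cell libraries that are not part of the comparison. Of 1636 tested genes below 1 FPKM in both, 102 (6.23%) were lower and 206 (12.6%) higher, against 2.21% and 11% of all genes, and after quantile normalization 156 lower and 110 higher. These genes could pass the filter on low levels only through other groups: 105 of them would not have passed without the IVF 2-cell libraries, and 333 without the IVF 2-cell and Kdm4d libraries, against 111 and 348 of all 13446 genes. Their shares were therefore shaped by the filter and are not set against those of the other classes. Of 1353 genes of donor type, at 5 FPKM or more in donor cells and below 1 in IVF 1-cell embryos, 149 (11%) were higher and 11 (0.813%) lower, near the share of all genes for the higher ones. After quantile normalization 81 were higher and 31 lower. In SCNT embryos 592 genes of donor type (43.8%) were higher, against 36.2% of all genes. Of 852 genes of oocyte type, at 5 FPKM or more in IVF 1-cell embryos and below 1 in donor cells, 113 (13.3%) were higher and 17 (2.00%) lower, and after quantile normalization 42 higher and 47 lower. Without the first or the second Kdm4d library the higher genes fell to 111 and 55 in the class below 1 FPKM, 74 and 23 in the donor type and 22 and 65 in the oocyte type. The lower genes fell to 63 and 44, 3 and 1, and 13 and 10.

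Of 62 cumulus and granulosa markers tested 5 were higher (8.06%) and 1 lower (1.61%) than in IVF embryos, near the 11% and 2.21% of all genes. In SCNT embryos 23 were higher (37.1%, against 36.2% of all genes) and 5 lower. Without the second Kdm4d library 2 were higher. The summed level of 71 such markers was between 5710 and 7169 FPKM in Kdm4d, 3732 and 4009 in IVF, 3887 and 4699 in SCNT and 2494 and 3420 in mutant libraries. In donor libraries it was between 27309 and 33348, but in IVF 1-cell libraries only between 238 and 253 and in SCNT 1-cell libraries between 342 and 371. The sum at the 2-cell stage is therefore not a measure of donor cell RNA. Of the 71 markers, 24 reached a mean of 1 FPKM in Kdm4d against 23 in IVF embryos. S100a6 stood at 7.22 and 6.00 FPKM against 1.01 and 1.35 (1.81, SE 0.24, adjusted p = 0.00081), with a mean of 826 in donor cells. The other higher markers were Gja1, Ctsl (means of 641 and 312 FPKM), Sparc (2.99 and 4.12 against 0.98 and 0.752) and Id3 (7.38 and 9.39 against 0.0944 and 0.742, donor mean 50.1). Sparc lost its call without the second Kdm4d library (adjusted p = 0.055) and Id3 without either (adjusted p = 0.083 and 0.13). The lower marker was Akr1c18 (adjusted p = 0.033), a call lost without either Kdm4d library (adjusted p = 0.078 and 0.31) or the second IVF library (adjusted p = 0.099). S100a10 (8.09 and 8.61 against 1.27 and 1.40) and S100a11 (5.52 and 6.76 against 0.862 and 0.692) were higher as well, both below their SCNT levels of 23.4 and 22.5, and 22.8 and 21.8. S100a11 shared 42.1% of its stretches with other genes, so its level is uncertain. Markers of immune cells were called once in each direction among 10 tested, H2-Aa higher (10.9 and 8.03 against 0.818 and 1.66) and Cd74 lower (2.31 and 0.608 against 5.74 and 3.66). The call of Cd74 was lost without the second Kdm4d or the first IVF library (adjusted p = 0.44 and 0.1). Among tested markers of sperm (2), red blood cells (1), oviduct epithelium (3) and endothelium (4), none was called. The part of other cells' RNA in the calls was not tested.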

How the data were processed

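Novoalign, Cufflinks 2.0.2 and build mm9 are named, per the submitters' processing notes. The authors deposited FPKM values for 23697 rows in 14 libraries of 7 groups. Embryo RNA was amplified by SMARTer and sequenced single-end, per the labels' protocols. The annotation, any filter and the treatment of multiply matching reads are not stated there.

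Here 815 short RNA rows were left out (length correction fails for them), and 630 rows sharing a symbol were summed, leaving 22482 symbols. The test took the 13446 genes reaching 1 FPKM in 2 or more libraries, as log2(FPKM + 1). All 7 groups were fitted with limma 3.58.1 in R 4.3.3, with a weight per group (0.337 for Kdm4d SCNT, 1.435 for IVF 2-cell), an intensity trend, 7 residual degrees of freedom and Benjamini-Hochberg adjustment. On simulated data for this comparison (13446 genes, 100 changed at each size), 68% of genes changed by 1 on the log2 scale and 99% of those changed by 2 were recovered. There were 8 false calls. The changed genes were drawn only from those well above 0 in IVF embryos, with normal noise of the spread found in the fit. Recovery of genes near 0 was therefore not estimated. Depth is known only in relative terms, from the steps between low FPKM values, and no counts were recovered.

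Named were Kdm4d, the 12 largest rises and 12 largest falls (called, no overlap, and 5 FPKM or more on average in either group), up to 3 called members per list and direction (or the 2 most abundant), and up to 4 genes per origin class. The text gives a selection. Members, lists and the group weights were chosen with earlier results of these data known. A gene's shared stretches are the 50-base stretches, taken every 25 bases of its longest GENCODE transcript, found in another gene's longest transcript on either strand. Values are called uncertain above 30% sharing, or above 15% within a gene family. A comparison of promoter content between called sets was not made, since the promoter table matched 9582 of the 13446 genes tested.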

Additional observations from a re-analysis of the deposited data

How the results depend on the processing

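The counts of genes higher and lower in Kdm4d SCNT than in IVF 2-cell embryos, 1481 and 297, depended on most choices tried. One variance per gene for all groups gave 2237 and 497, a fit to only the 4 libraries compared 104 and 36, quantile normalization 702 and 798, and equal FPKM sums 737 and 774. A pseudocount of 0.1 left 192 lower genes, and a filter at 5 FPKM in 2 libraries, with fewer genes tested, 197. Leaving out 1 library at a time gave from 382 to 1287 higher and from 99 to 222 lower genes. The other settings kept both counts within 1.5 times. With the exception of the reduced samples and genes, the cause of these changes was not tested. No named gene that was called changed direction under any setting. Fewest named genes kept their call, 48 of 150, in the fit to only the 4 libraries compared, and 107 did so with a pseudocount of 0.1. Of 150 named genes called, 124 kept their call after quantile normalization, 128 with equal sums, 85 without the first Kdm4d library, 69 without the second, and 131 and 122 without the first and the second IVF library. Of the 24 genes with the largest changes, 24 kept theirs under every setting except without the first Kdm4d library (21), without the second (20) and in the fit to 4 libraries (20). The replicate numbers shared by the groups do not pair the libraries in the labels, and deviations of same-numbered Kdm4d and IVF libraries correlated at -0.066. A fit with the replicate block gave 1423 higher and 270 lower genes. Shallow Kdm4d libraries limit what could be detected in genes near 0.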
